A study of Mus musculus with 6 samples.

Results

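The genes described here are those that cells use to answer interferon and to show peptides to T cells. They were chosen by gene name from the array's annotation, with earlier results of these data known. The rule took probe sets with exactly 1 gene symbol beginning with H2-, Ifit, Oas, Gbp, Irf plus a digit or Stat plus a digit. It also took a short list of named genes such as B2m, Tap1, Cd74 and Mx1. This rule gave 83 genes read by 141 probe sets, out of 18194 genes with a probe set of their own, and 2 further names in the rule were not analysed here. Another 18 probe sets listed for several genes at once, most of them reading near-identical class I genes, were left out. The rule also takes in Irf2bp1, Irf2bp2 and Irf2bpl, which encode partners of an interferon regulatory factor, and H2-Ke6, an enzyme gene named for its place in the H2 region. RNA came from cultured mouse inguinal fat cells after differentiation, with 3 samples in the control group and 3 given rosiglitazone at 1 uM for 4 days, each on its own array. Rosiglitazone is a thiazolidinedione drug that activates the fat cell receptor PPARγ, and the labels give the effect of treatment as "Beiging" for its group and "Non-activated" for controls. Strain, sex and age are not given in the sources used here. No label states whether samples within a group were grown as separate cultures, so every p-value rests on the variation among these 6 samples, some or all of it possibly technical.

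Interferons bind receptors on the cell surface, and kinases of the JAK family then activate STAT proteins, which together with IRF factors switch on antiviral genes through DNA elements called ISRE and GAS. The products of these genes block viral entry, RNA translation and virus release, and they raise the display of peptides on class I molecules. A class I molecule joins a heavy chain, such as H2-K or H2-D, to beta-2 microglobulin, and is loaded in the endoplasmic reticulum with peptides carried in by the TAP transporter. Class II molecules present taken-up protein and belong mainly to macrophages, dendritic cells and B cells, although fat cells have been described to make some.

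The intensities are the authors' linear probe set values, on which the median of an array lay between 44.46 and 46.66. Adipocyte markers were bright in both groups, with a summed intensity over 7 markers of 70714 to 71829.9 on control arrays and 72202 to 73402 on rosiglitazone arrays. Macrophage markers were also present and lower with the drug: 12 of 13 tested markers fell and 0 rose, and the sum over 16 markers went from a range of 14257 to 15573 to a range of 4997 to 5532. Of 8 fibroblast and preadipocyte markers tested 7 fell, the sum over 9 markers going from 34031 to 34976 down to 18877 to 19831. Among all genes tested 35.8% fell. Cd163 of macrophages, Itgax, Flt3, Xcr1 and Ccr7 of dendritic cells and Cd3e, Cd4, Cd79a and Ms4a1 of lymphocytes were too dim to test. The sum over 8 dendritic cell markers was 304 to 349 on control arrays and 319 to 348 on rosiglitazone arrays. The lymphocyte and pan-leukocyte sum over 10 markers went from 509.5 to 519.9 down to 339 to 382, with 1 of 3 tested markers lower (Ptprc, by 1.17). The endothelial sum over 8 markers went from 244 to 255 down to 186 to 197, with Tek lower and Sox18 higher. The part of these cell types in the members' values was not tested. In RNA of a whole culture, fewer cells of a type and less RNA per cell cannot be told apart.

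Of the 83 genes 64 were bright enough to test. With rosiglitazone 27 of them fell and 11 rose at an adjusted p under 0.05 (limma, Benjamini-Hochberg over all 12952 genes tested). Among all genes tested 35.8% fell and 23.6% rose, so the 42.2% of these genes that fell and the 17.2% that rose lie near the background of the comparison. Among members with a mean intensity of at least 100, 59.1% fell and 18.2% rose, against 42.1% and 28.0% of all genes that bright. Of the dimmer members 5% fell and 15% rose, against 18.2% and 11.4%. These differences were not tested. The median log2 change of the 64 members was −0.21, against −0.05 for all genes. The 3 rosiglitazone arrays lay entirely below the control arrays for 26 of the 64 and entirely above for 10, where all genes gave 38.3% and 25.7%. After each array was centred on its median, which moves all changes up by 0.12, 21 fell and 17 rose, and after quantile normalization 22 fell and 14 rose. With no filter on dim probe sets the calls of Ddx58, Gbp3, Gbp6, Gbp7, H2-Eb1, H2-Ke6, Irf2bp2, Irf7, Mx1 and Rsad2 were lost. Most changes were modest: 25 of the 38 called genes changed by less than 1.5-fold. H2-K1, B2m, Ifitm2, Irf4 and Stat3 were among the falls and Cd74, Ifit1, Ifit3, Oasl2 and Usp18 among the rises. The Ifit, Oas, Gbp and class I heavy chain groups each held called genes of both directions. However, the only class I heavy chain rise, H2-Q10, was dim and 0.00 with a floor of 64. The only Gbp rise, Gbp6, had overlapping groups and lost its call in 6 of 16 processing alternatives. Differences between role groups were not tested.

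**Figure D1:**
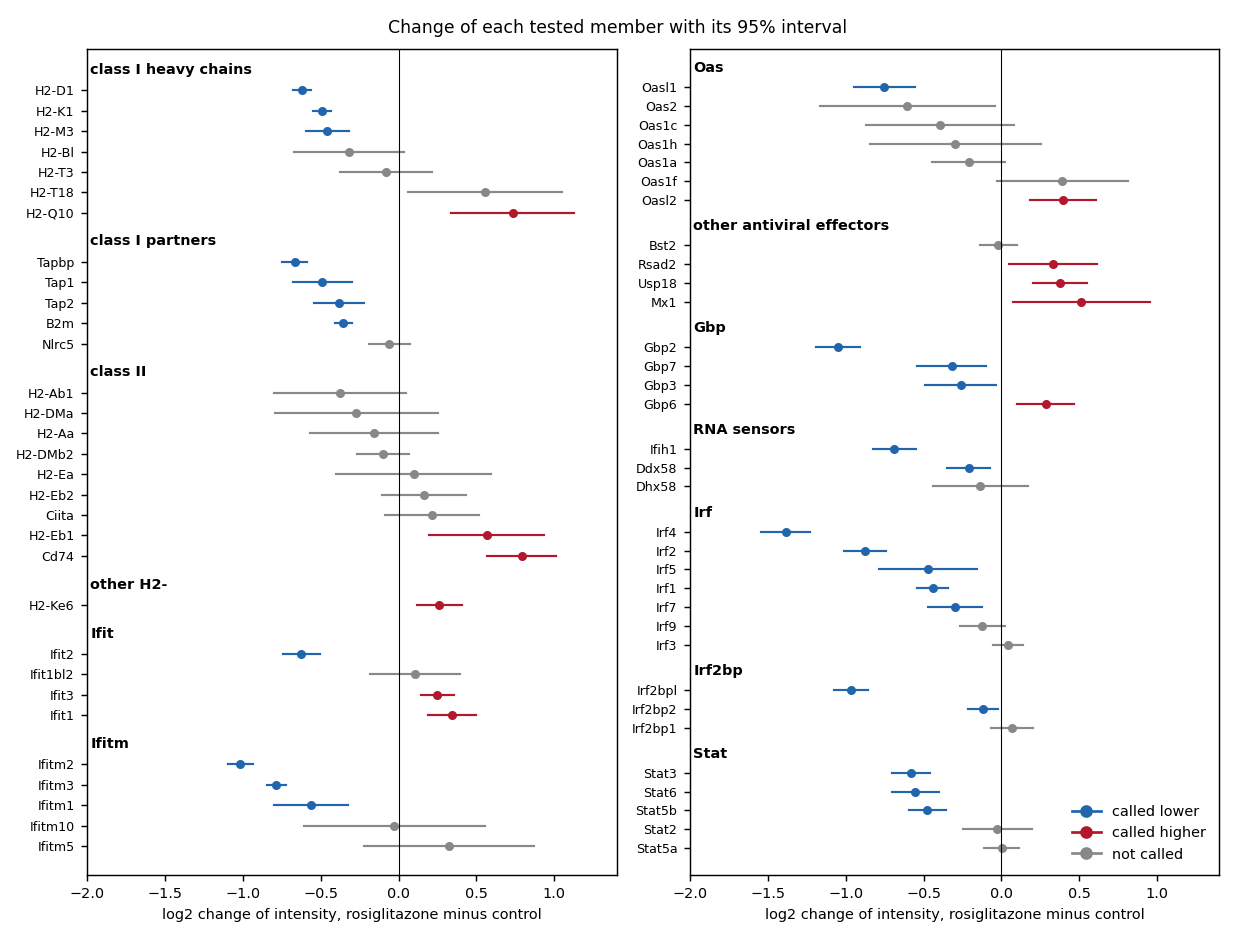
Log2 change (rosiglitazone minus control, horizontal axis) of the 64 tested genes by role group, with points for the limma estimate, bars for its 95% interval, and colour for the call at an adjusted p under 0.05. The largest fall is Irf4 at −1.39 and the largest rise is Cd74 at 0.79.

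The promoters of these genes carry the interferon element more often than promoters do in general. In windows from 250 bases before to 50 bases after each transcript start (RefSeq, GRCm38.p6), the ISRE core (GAAA, any 2 bases, GAAA) was searched on both strands. It stood in 22 of 78 windows of the members (28.2%) and in 3.44% of all 32851 promoter windows, with 63 of the 83 genes matched by symbol. The GAS letters TTCNNNGAA stood in 15.4% of member windows and 8.30% of all windows, overlapping an ISRE in 2 member windows. An idealised PPAR element, the letters AGGTCA repeated after 1 base, stood in 0 member windows and 0.0396% of all windows. ISRE cores were found on both sides of the response, in 9 of 26 matched genes that fell, 3 of 7 that rose and 5 of 18 without a call. Below are the 180 bases before the start of 3 genes that fell (B2m, Gbp2, Ifitm2) and 3 that rose (Ifit1, Ifit3, Rsad2). They were chosen to show that the same core precedes genes that moved either way. Rsad2 had overlapping groups, and its call was lost in 9 of 16 processing alternatives. Each stretch runs 5′ to 3′ along the gene, with the ISRE core in capitals.
B2m, chr2:122147507-122147686, plus strand: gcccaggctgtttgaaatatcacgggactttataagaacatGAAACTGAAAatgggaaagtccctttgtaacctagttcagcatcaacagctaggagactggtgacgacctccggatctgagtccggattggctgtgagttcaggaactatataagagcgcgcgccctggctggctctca
Gbp2, chr3:142620483-142620662, plus strand: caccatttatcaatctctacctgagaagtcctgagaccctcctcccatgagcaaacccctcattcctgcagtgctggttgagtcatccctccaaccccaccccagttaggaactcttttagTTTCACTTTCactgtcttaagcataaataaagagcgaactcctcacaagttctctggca
Ifitm2, chr7:140955962-140956141, minus strand: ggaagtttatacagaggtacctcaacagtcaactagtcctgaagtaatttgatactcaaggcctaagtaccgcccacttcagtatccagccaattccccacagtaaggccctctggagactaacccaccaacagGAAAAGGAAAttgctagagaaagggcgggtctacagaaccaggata
Ifit1, chr19:34640709-34640888, plus strand: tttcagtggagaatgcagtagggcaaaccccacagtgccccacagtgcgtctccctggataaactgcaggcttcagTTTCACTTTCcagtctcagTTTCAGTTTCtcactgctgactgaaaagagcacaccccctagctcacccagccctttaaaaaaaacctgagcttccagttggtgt
Ifit3, chr19:34583349-34583528, plus strand: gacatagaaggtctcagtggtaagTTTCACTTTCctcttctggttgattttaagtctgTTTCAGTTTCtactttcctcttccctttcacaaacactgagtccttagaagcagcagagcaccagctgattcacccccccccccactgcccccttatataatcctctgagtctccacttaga
Rsad2, chr12:26456453-26456632, minus strand: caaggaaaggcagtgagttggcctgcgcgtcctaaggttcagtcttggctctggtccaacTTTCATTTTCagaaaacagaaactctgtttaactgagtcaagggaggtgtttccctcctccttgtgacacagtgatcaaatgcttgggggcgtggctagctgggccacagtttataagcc
The core begins 139 bases before the start of B2m, 59 before Gbp2, 46 before Ifitm2 and 120 before Rsad2. Ifit1 has 2 cores, beginning 104 and 85 bases before its start, and Ifit3 has 2, at 156 and 122. By role, an ISRE core was found in 4 of 4 matched Gbp genes and 4 of 5 Ifit genes, but in 0 of 8 matched class I heavy chain genes and 0 of 7 class II genes. The 2 cores of Ifit1 also lie in an overlapping window of Ifit1bl2 on the other strand, and were counted for both genes. Only exact letters were counted. Near matches, such as tttcacttct in the windows of H2-K1, H2-D1 and H2-M3, were not, so a 0 does not mean that an interferon element is absent. The counted matches describe the letters of the windows and nothing about which factors bind them.

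Of 7 tested class I heavy chain genes 3 fell with rosiglitazone (H2-K1, H2-D1 and H2-M3), 1 rose and 3 had no call. Across all genes 35.8% fell and 23.6% rose. H2-K1, which encodes a classical heavy chain, read 4049.6, 4109 and 4159.5 on the control arrays and 2960.3, 2936 and 2869 with the drug. It fell by 0.49 on the log2 scale (SE 0.03, limma adjusted p = 2.4e-10), to 71.2% of control. H2-D1, the other classical heavy chain gene, read 4312, 4379 and 4425 in control cells and 2793, 2862 and 2868 with rosiglitazone, a log2 change of −0.62 (SE 0.03, limma adjusted p = 1.1e-11). In both genes the 3 arrays of a group lay close together and far from the other group. H2-M3, whose product presents formylated bacterial peptides, fell from 309 ± 10.3 to 225 ± 11.7 (mean ± SD, n = 3 here and throughout), a log2 change of −0.46. All 3 falls were called after median centring and after quantile normalization too.

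The heavy chain genes are near copies of one another, and their probe sets can read several of them. All 4 kept probe sets of H2-K1 end in _x_at, the maker's mark for sequences shared with other transcripts, and each was called lower by itself, by 0.46 to 0.65 on the log2 scale. Of 6 kept probe sets of H2-D1 4 were called lower, among them the only one without that mark, which fell by 0.56 and had a mean intensity under 100. The other 2 were dim too, with log2 changes of 0.03 and 0.74 and no call. Which of the class I genes fell therefore cannot be fully separated on this array. Among the remaining heavy chain genes H2-Q10, known for a secreted liver product, rose from 31.6 ± 5.26 to 52.1 ± 1.70 (log2 change 0.73, limma adjusted p = 0.00274), near the dim end of the scale and 0.00 with a floor of 64. H2-T18 had no call at a log2 change of 0.56, with 73.6, 134 and 193 on the treated arrays, and was called at 0.68 after median centring, at 0.64 after quantile normalization, at 0.66 without control replicate 1 and at 0.93 without rosiglitazone replicate 1. H2-Bl and H2-T3 were also without a call, and H2-D4, H2-M9, H2-M10.1, H2-Q2, H2-Q5 and H2-T24 were too dim to test.

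Of 5 tested genes grouped as partners of the heavy chain, with the regulator Nlrc5 among them, 4 fell and 0 rose. Across all genes 35.8% fell and 23.6% rose. B2m, which encodes beta-2 microglobulin, read 10235, 10519 and 10558 in control cells and 7890.5, 8238 and 8362 with rosiglitazone. It fell by 0.35 (SE 0.03, limma adjusted p = 4.7e-09), and its second probe set fell by 0.41. Tapbp, which encodes the tapasin bridge between TAP and the heavy chain, fell from 3014 ± 138 to 1898 ± 59.6, to 63.0% of control. Tap1 read 213, 179.6 and 191 in control cells and 129, 134 and 152 with the drug, a log2 change of −0.49, and its transporter partner Tap2 fell by 0.38. The 4 genes had no overlap between groups, and all 4 were called under both other scalings. Rosiglitazone arrays lay entirely below control arrays for 38.3% of all genes. Nlrc5, the gene of the transactivator of class I genes, did not pass the test: it read 285, 277 and 305 against 277, 266 and 288 (log2 change −0.06, 95% interval −0.19 to 0.07, adjusted p = 0.438 by limma), and its sign turned to 0.06 after median centring.

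**Figure D2:**
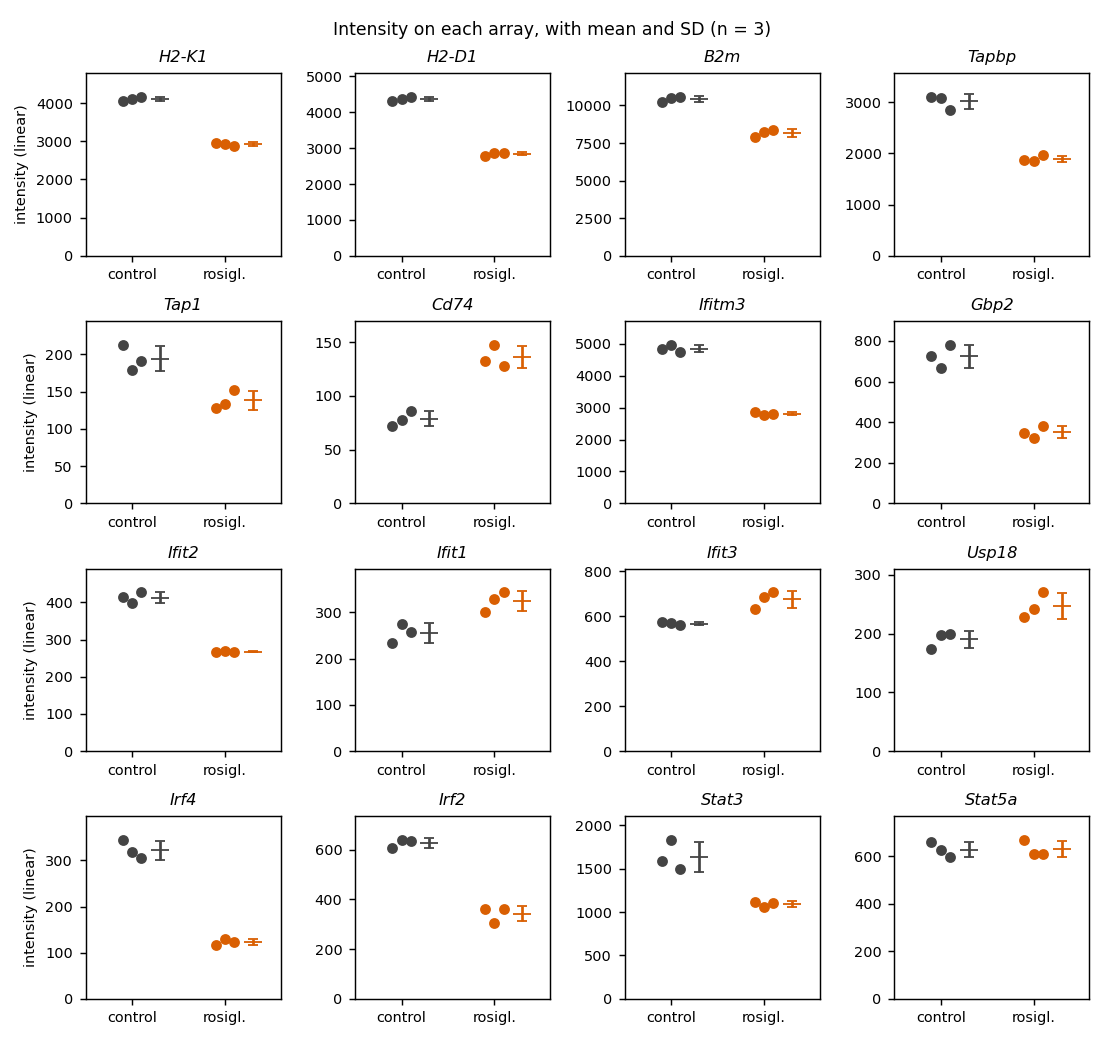
Linear intensity on each of the 6 arrays for 16 members, with control in grey and rosiglitazone in orange, and the bar beside the points for mean ± SD (n = 3); every vertical axis starts at 0. The groups are apart for the class I genes, Ifitm3, Gbp2, Ifit2, Irf4, Irf2 and Stat3, rise for Cd74, Ifit1, Ifit3 and Usp18, and overlap for Stat5a.

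Helpers of class I loading outside the name rule split into falls and rises. The immunoproteasome subunit gene Psmb9 fell by 0.87 and Psmb10 fell by 0.36, while Psmb8 had a log2 change of −0.10 without a call. Erap1, which trims peptides, fell by 0.28. The chaperone genes of the endoplasmic reticulum rose: Calr by 0.32, Canx by 0.28 and Pdia3 by 0.27, as did the general chaperone gene Hspa5 by 0.42. Tapasin and TAP transcripts thus fell while those of calreticulin, calnexin and ERp57, which work in the same loading complex and on other glycoproteins, were higher. Cd1d1, a class I-like gene whose product presents lipids, rose by 0.22, and Mr1, whose product presents vitamin metabolites, fell by 0.62. In the whole list of peptide loading and processing 10 of 19 genes fell and 6 rose, with a median of −0.19. Across all genes 35.8% fell and 23.6% rose.

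Of 9 tested class II genes 0 fell and 2 rose, Cd74 and H2-Eb1, where 23.6% of all genes rose. Most were dim, although H2-DMb2 read 176 to 216, and their difference from the class I genes was not tested. Cd74, which encodes the invariant chain that escorts class II molecules, read 72.0, 78.1 and 86.1 in control cells and 132, 148 and 128 with rosiglitazone. Its groups did not overlap, and it rose by 0.79 (SE 0.10, limma adjusted p = 6.3e-06), to 173% of control. H2-Eb1, a class II beta chain gene, read 40.9, 57.9 and 36.1 in control cells against 67.3, 63.8 and 64.5 (log2 change 0.57, limma adjusted p = 0.0105). Its call was lost without control replicate 3 (0.42) and with a floor of 64 (0.03). The alpha chain gene H2-Aa read 46.0, 35.4 and 39.4 in control cells and 35.2, 41.2 and 31.9 with the drug, with overlapping groups and no call (log2 change −0.16, 95% interval −0.57 to 0.25). H2-Ab1, its beta chain partner, read 63.8, 86.0 and 52.9 against 63.0, 38.7 and 54.5. Its log2 change of −0.38 was not called, though it was at −0.54 without control replicate 3 and at −0.53 without rosiglitazone replicate 1, and its second probe set gave 0.32.

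Ciita, the gene of the class II transactivator, read 52.7, 60.8 and 48.2 in control cells and 62.5, 62.2 and 62.0 with rosiglitazone, a log2 change of 0.22 without a call, or 0.34 and called after median centring. The peptide exchange genes H2-DMa and H2-DMb2 and the genes H2-Ea and H2-Eb2 had no call, and H2-Oa and H2-Ob were too dim to test. Some enzymes that prepare peptides for class II, which macrophages express strongly, fell: the cathepsin gene Ctss by 1.07, the thiol reductase gene Ifi30 by 0.96 and the legumain gene Lgmn by 0.67. Of all genes tested 35.8% fell. In the same arrays the macrophage marker C1qa fell by 1.99 and Mrc1 fell by 1.80, opposite in direction to Cd74. The part of cell composition in these values was not tested.

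Antiviral effector genes moved both ways, also within a family. Among 4 tested Ifit genes, whose products bind foreign RNA, Ifit1 rose from 233, 276 and 258 to 299.9, 329 and 343, a log2 change of 0.34 (SE 0.07, limma adjusted p = 6.6e-04). Ifit3 rose from 568 ± 7.06 to 674 ± 38.8, a log2 change of 0.25. Ifit2, a neighbour in the same family, went the other way: it read 414, 398 and 427 in control cells and 268 on each treated array, and fell by 0.62 (SE 0.06, limma adjusted p = 5.3e-08). For all 3 genes the groups did not overlap, and the calls held under median centring and quantile normalization. Ifit1bl2 had a log2 change of 0.11 without a call, and Ifit1bl1 was too dim to test.

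Usp18, whose product trims the ubiquitin-like ISG15 from proteins and restrains interferon receptor signalling, rose from 173, 198 and 199 to 228, 243 and 270.3. Its log2 change was 0.38 (SE 0.08, limma adjusted p = 7.3e-04), with no overlap between groups. Mx1, a gene of a GTPase that traps viral particles, read 29.4, 34.0 and 40.2 in control cells and 39.7, 46.9 and 63.0 with rosiglitazone, so the highest control array lay above the lowest treated one. Its call (log2 change 0.51, limma adjusted p = 0.0419) did not hold when control replicate 1 (0.40), control replicate 2 (0.51), rosiglitazone replicate 2 (0.54) or rosiglitazone replicate 3 (0.33) was left out, and the change was 0.00 with a floor of 64. Rsad2, the viperin gene, read 97.0, 126 and 138 against 125, 175 and 153, with overlap, a log2 change of 0.33 and an adjusted p of 0.0417 by limma. The call did not hold when control replicate 1 (0.18), control replicate 2 (0.37), rosiglitazone replicate 2 (0.22) or rosiglitazone replicate 3 (0.31) was left out. Its 3 probe sets gave 0.33, −0.28 and 0.84, the second without a call. Bst2, which encodes the tether that holds budding virus, had a log2 change of −0.02 (95% interval −0.14 to 0.10). Mx2 was under the floor on all 6 arrays.

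In the Oas family, whose synthases make a second messenger that activates RNA decay, 1 of 7 tested genes fell and 1 rose. The shares over all genes were 35.8% and 23.6%. Oasl1 read 159, 161 and 143 in control cells and 90.4, 95.9 and 89.0 with rosiglitazone, and fell by 0.75 (SE 0.09, limma adjusted p = 2.3e-06). Its paralog Oasl2 rose from 88.1, 82.0 and 93.6 to 121, 110.2 and 115, a log2 change of 0.39 (SE 0.10, limma adjusted p = 0.00287). The groups did not overlap for either gene. Oas1a, Oas1c, Oas1f, Oas1h and Oas2 had no call, at log2 changes from −0.61 to 0.39, although Oas2 was called without control replicate 2 (−0.82) and Oas1f without control replicate 1 (0.61) and after median centring (0.51). Oas1b, Oas1e and Oas3 were too dim to test.

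The Ifitm genes gave some of the largest falls. Their products sit in membranes and hinder viral fusion. Ifitm2 read 2451, 2315 and 2219 in control cells and 1167, 1143 and 1142 with the drug, a log2 change of −1.02 (SE 0.04, limma adjusted p = 1.8e-12). Ifitm3 fell from 4840.1 ± 114 to 2807 ± 49.4, to 58.0% of control, and Ifitm1 fell from 119 ± 4.03 to 81.3 ± 10.7. These 3 of the 5 tested Ifitm genes had no overlap between groups and kept their calls under both other scalings. Of all genes tested 35.8% fell, and the rosiglitazone arrays lay entirely below the control arrays for 38.3%. The bone gene Ifitm5 and Ifitm10 had no call at intensities near 30, and Ifitm6 and Ifitm7 were too dim to test. These genes are also expressed in stromal cells and macrophages, whose markers fell in the same arrays, and the part of those cells was not tested.

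Among guanylate-binding proteins, GTPases that attack the vacuoles of pathogens, Gbp2 gave the clearest fall. It read 726, 667 and 782 in control cells and 347, 322 and 381 with rosiglitazone. Its log2 change was −1.05 (SE 0.07, limma adjusted p = 9.2e-10), and its second probe set fell by 0.92. The other 3 tested Gbp genes had overlapping groups and weak calls. Gbp3 (−0.26) and Gbp7 (−0.32) were called lower and Gbp6 (0.29) higher, and both falls lost their call after median centring (−0.14 and −0.20) and after quantile normalization (−0.17 and −0.20). The second probe set of Gbp6, about as bright (mean 212 against 214), gave 0.16 without a call. The second probe set of Gbp7 was called lower by itself (−0.21). Gbp3 was not called without control replicate 3 (−0.09) or rosiglitazone replicate 1 or 2 (−0.23 and −0.21). Gbp7 was not called without control replicate 2 or 3 (−0.30 and −0.26) or rosiglitazone replicate 1 or 2 (−0.25 for both), and Gbp6 was not called without control replicate 1 (0.21) or rosiglitazone replicate 3 (0.24). Gbp2b and Gbp8 were too dim to test.

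The genes of the cytosolic sensors of viral RNA were lower or without a call. Ifih1, which encodes MDA5, read 471, 521 and 517 in control cells and 301, 294 and 342 with rosiglitazone. The groups lay far apart, and the log2 change was −0.69 (SE 0.07, limma adjusted p = 1.3e-07). Ddx58, which encodes RIG-I, read 375, 384 and 434 against 339, 329.8 and 361. Its fall of 0.21 (limma adjusted p = 0.00955) was −0.09 and not called after median centring, −0.11 and not called after quantile normalization, and it was not called without control replicate 3 (−0.15) or rosiglitazone replicate 2 (−0.18). Dhx58, the gene of LGP2, had a log2 change of −0.14 without a call.

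**Figure D3:**
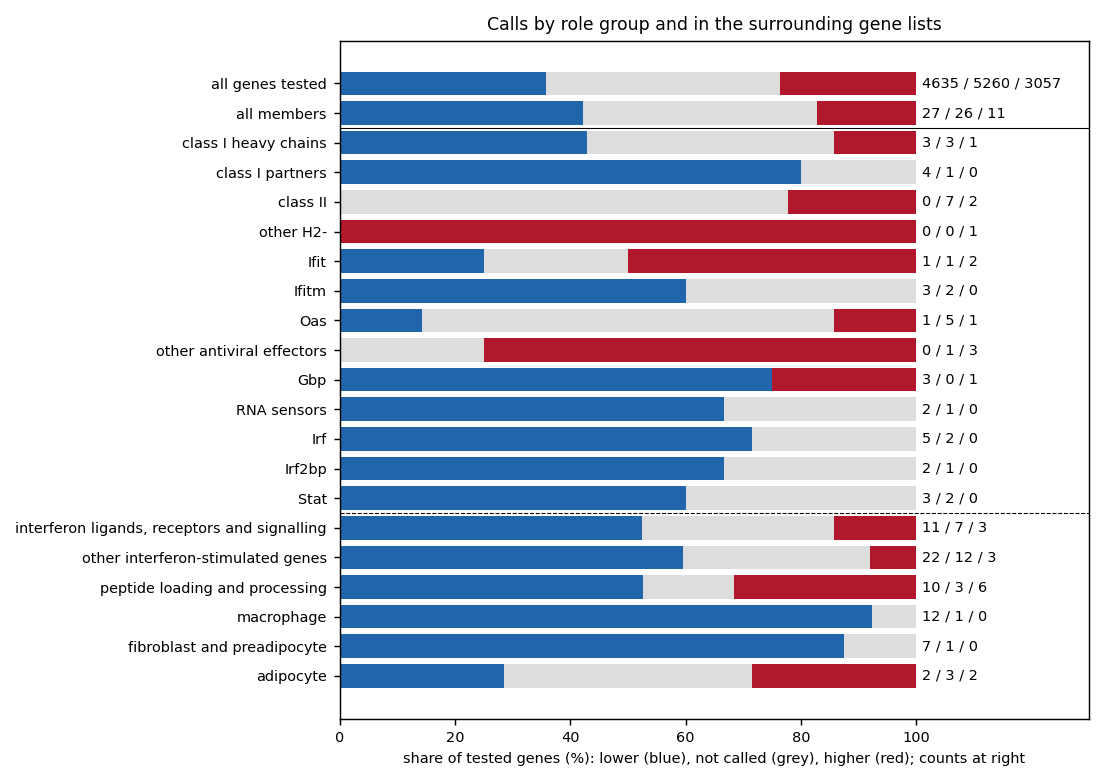
Share of tested genes (%, horizontal axis) called lower (blue), not called (grey) and called higher (red) at an adjusted p under 0.05, for all genes, the members, their role groups and 6 surrounding lists, with counts at the right. All 4 called class I partners fell. Of 4 other antiviral effectors 3 rose, but Mx1 and Rsad2 had overlapping groups and lost their calls in 8 and 9 of 16 processing alternatives. Effectors of the Ifit, Ifitm, Oas and Gbp families are shown in groups of their own. Differences between groups were not tested.

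Of 7 tested Irf genes 5 fell and 0 rose as deposited, while after median centring 3 fell and Irf3 rose. As deposited 35.8% of all genes fell and 23.6% rose. Irf4, a lymphoid factor that in fat cells also takes part in fat breakdown and heat production, had the largest change of all the members. It read 344, 317 and 304 in control cells and 117, 129 and 124 with rosiglitazone, a log2 change of −1.39 (SE 0.07, limma adjusted p = 1.1e-10). Its second, dimmer probe set had a log2 change of 0.21 without a call. Irf2, which encodes a repressor of interferon genes, fell from 605, 639 and 636 to 359.9, 306 and 362 (log2 change −0.87, SE 0.06). Irf1, which activates class I and many interferon-gamma genes, read 954, 987 and 889 in control cells and 687, 679.6 and 717 with the drug, and fell by 0.44 (SE 0.05, limma adjusted p = 5.4e-07).

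Irf5 and Irf7, the first known in macrophages and the second the main driver of type I interferon genes, gave smaller falls. Irf7 read 215, 219 and 246 in control cells and 177, 173 and 203 with rosiglitazone (log2 change −0.30), and lost its call after median centring (−0.18) and quantile normalization (−0.17). Irf5 fell by 0.47 at intensities of 63.0 ± 6.20 in control cells, and lost its call after median centring (−0.35), with a floor of 64 (−0.03) and without control replicate 2 (−0.41). Irf9, which binds STAT proteins to form the factor that reads the ISRE, had readings of 228, 237 and 218 against 199, 210.3 and 218, a log2 change of −0.12 without a call and of 0.00 after median centring. Irf3, activated by viral sensors, had a log2 change of 0.04, and was called higher after median centring (0.16), after quantile normalization (0.14) and without _x_at and _s_at probe sets (0.13). The probe set read in that last case was also called by itself. Irf8, a factor of myeloid cells, was too dim to test, reading 26.1, 31.2 and 37.8 in control cells and 17.1, 12.0 and 21.9 with the drug.

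The partners of Irf2 taken in by the name rule differed among themselves. Irf2bpl fell from 661, 680.0 and 725 to 356, 348 and 352 (log2 change −0.97, SE 0.05, limma adjusted p = 7.8e-11), and its second kept probe set fell by 1.42. Irf2bp2 had overlapping groups on the probe set used, and its small fall of 0.12 was 0.00 after median centring. On that set it was not called without control replicate 1 or 2 (−0.08 and −0.11) or rosiglitazone replicate 1 or 2 (−0.10 for both). Of its 4 kept probe sets 3 were called lower by themselves, at log2 changes of −0.12, −0.29 and −0.25. The remaining one gave −0.28 without a call. Irf2bp1 had a log2 change of 0.07 without a call, or 0.19 with a call after median centring or quantile normalization.

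Of 5 tested Stat genes 3 fell, where 35.8% of all genes fell. Stat3, which serves leptin and interleukin-6 signals, read 1592, 1830.4 and 1491 in control cells and 1116, 1056 and 1102 with rosiglitazone, a log2 change of −0.58 (SE 0.06, limma adjusted p = 2.1e-07). Its second bright probe set fell by 0.63. Stat6, which serves interleukin-4, fell from 831, 784 and 651 to 534, 504 and 498, and Stat5b, which serves growth hormone, fell from 606 ± 37.0 to 436 ± 16.6 (log2 change −0.47). The paralog Stat5a read 661, 624 and 597 against 668, 610.5 and 608, a log2 change of 0.00 (95% interval −0.11 to 0.12) that was called at 0.13 after median centring. Stat2, which pairs with Irf9, read 108, 106 and 97.0 against 93.6, 100.1 and 113, a log2 change of −0.03 without a call. Stat4 was too dim to test. H2-Ke6, the enzyme gene of the H2 region, rose by 0.26, with 669, 668 and 554 against 810.3, 747 and 706.

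Genes upstream of these factors, from a list of interferon ligands, receptors and signalling, fell in 11 of 21 cases and rose in 3, with a median of −0.22. Among all genes tested 35.8% fell and 23.6% rose. The kinase genes Jak1 and Jak2 fell by 0.71 and 0.73, and Socs3, a feedback inhibitor induced by STAT3, fell by 0.99. Among receptor chains Ifnar2 fell by 0.52 and Ifngr1 fell by 0.22, Ifngr2 rose by 0.23, and Ifnar1 had a log2 change of −0.05 without a call. Sting1, which encodes the adaptor of the DNA sensor cGAS, fell from 134 ± 12.9 to 68.4 ± 7.43, and the kinase gene Ikbke fell by 0.84. Mavs, the adaptor gene of the RNA sensors, rose by 0.27, and the kinase gene Tbk1 rose by 0.20. Ifna4 and Ifng were too dim to test, and Ifnb1 had a log2 change of 0.18 without a call.

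Of 37 tested interferon-stimulated genes outside the name rule, 22 fell (59.5%) and 3 rose (8.11%), with a median of −0.29. All genes tested gave 35.8% and 23.6%, and the difference was not tested. The list was made with earlier results of these data known. Ifi27l2a fell from 6085 ± 127 to 1645 ± 99.2, a log2 change of −1.89 (SE 0.04, limma adjusted p = 1.5e-15). The galectin gene Lgals9 fell by 1.39, the DNA-binding gene Ifi204 fell by 1.10, and Trafd1, a brake on innate signalling, fell by 1.05. The rises were in Cmpk2 (0.44), Rtp4 (0.27) and Ifi27 (0.06), and the count of rises was 7 after median centring and 5 after quantile normalization. Leaving out control replicate 1, control replicate 2, rosiglitazone replicate 2 or rosiglitazone replicate 3 brought it to 1. The members Ifit1, Ifit3, Usp18 and Oasl2 were higher on the same arrays on which H2-K1, H2-D1, Ifitm2, Ifitm3 and Gbp2 were lower. Both sides were set together here after their values were seen. Ifit2 and Oasl1, of the same families as Ifit1 and Oasl2, also fell.

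**Figure D4:**
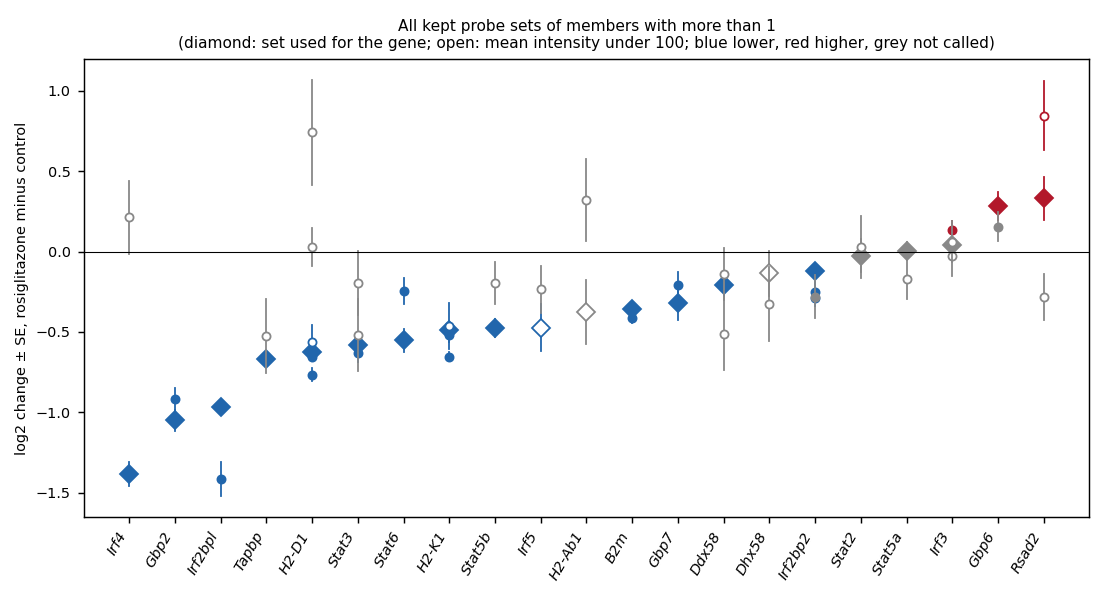
Log2 change ± SE of every kept probe set for the 21 members with more than 1, with a diamond for the set that stands for the gene, open symbols for a mean intensity under 100 and colour for the call of the probe set by itself. No gene had probe sets called in both directions, and in 6 genes all kept sets were called lower.

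Several probe sets per gene gave a check on the calls. For 21 members more than 1 probe set was kept, and 0 of them had sets called in opposite directions. In 6 (B2m, Gbp2, Gbp7, H2-K1, Irf2bpl and Stat6) all kept sets were called lower. In 11 some sets were called one way and the rest were not called, and in 4 no set was called. Brightness went with the calls: among members with a mean of at least 100 over the 6 arrays 26 of 44 fell and 8 rose, against 42.1% and 28.0% of all genes that bright, while among the 20 dimmer ones 1 fell and 3 rose, against 18.2% and 11.4% of all genes that dim. The 19 genes too dim to test lay between 1.00 and 39.0 on every array, and 9 of them were at or under the floor of 16 on all 6.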

How the data were processed

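Each sample's RNA was read on 1 Affymetrix mouse expression array. The authors deposited 1 intensity per probe set and array on a linear scale; background correction, summarization and normalization are not given in the sources used here. Groups follow the titles, since the labels' treatment text names the drug for all 6 samples. Names came from the platform's annotation: of 45037 probe sets without controls 34945 had 1 symbol, 932 several and 9160 none.

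Intensities under 16 were set to 16 and log2 was taken. Probe sets with a mean under 27.3, the dimmest 40%, were dropped, and the highest-mean probe set stood for a gene. The comparison used limma 3.58.1 (R 4.3.3) (variance trend, two-sided, no covariate, threshold 0.05), tested on simulated data. An exact permutation test of 3 against 3 cannot go below 0.1, and the number of arrays limits the precision. Members and lists were chosen with earlier results of these data known. Per-array values were given for up to 4 called, non-overlapping genes per role group (2 where none was called) and for fixed key genes, and others were named to account for every member.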

Additional observations from a re-analysis of the deposited data

How the results depend on the processing

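Over 16 alternatives 26 of the 38 called members (21 lower, 5 higher) kept call and direction wherever they could be tested; H2-K1 and Irf2 have no probe set left once those ending in _x_at or _s_at are dropped. The 5 are Cd74, Ifit1, Ifit3, Oasl2 and Usp18. The count of members called lower stayed within 1.5 times of 27. The count called higher, 11, was 5 with a floor of 64, 6 with no filter, 7 with the lowest 20% left out, 7 with no variance trend and 17 after median centring; the cause was not tested. Without 1 array the counts ranged from 23 to 27 lower and from 8 to 12 higher, and the count of all genes called from 6968 to 7460. The median change of all genes was 0.07 after median centring, so directions of small changes depend on how the arrays are scaled. Over all genes, 3057 rises and 4635 falls became 4558 and 3285 with median centring and 3945 and 3776 with quantile normalization. Signs turned in at least 1 setting for H2-T3, H2-DMb2, H2-Ea, Ifitm10, Bst2 and Stat5a, none called as deposited, and for Nlrc5 (0.063 after median centring, 0.042 after quantile normalization), Irf9 (0.00049 and 0.0032), Irf2bp2 (0.0030 after median centring), H2-Ab1 (0.32 without _x_at and _s_at probe sets) and Stat2 (0.096 after median centring, 0.055 after quantile normalization, 0.00052 with the mean of probe sets, and from −0.099 to 0.035 with 1 array left out); of these 11 only Irf2bp2 had a call. Samples of the same replicate number did not deviate together (correlations −0.02, −0.02 and 0.06), and a fit with that number as a block called 27 members lower, 12 higher and 7693 genes in all, the 1 added call being H2-T18. Each probe set tested by itself was an alternative chosen after seeing the data.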
